A study of Mus musculus with 4 samples.

Results

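The genes described are those of cholesterol and fatty acid synthesis, with their regulators, in mouse bone marrow-derived dendritic cells (BMDC) cultured with or without an ovarian tumour line. The list holds 33 gene symbols grouped by function, and it was chosen with earlier results of these data known. Of these, 32 were matched to at least 1 probe set of their own on the array, among 18193 genes in all, and Acat2 was not matched. A gene with several probe sets was read at the brightest one, by mean log2 signal over the 4 arrays. All cells came from bone marrow of male C57BL/6 mice aged 6 to 8 weeks and were grown for 7 days in medium with 500 U/ml of GM-CSF, the growth factor that turns marrow progenitors into dendritic cells. The control array holds BMDC not exposed to tumour cells. The live coculture added 1 cell of 1D8, a line of mouse ovarian surface epithelium that the labels call tumour cells, per 5 BMDC. The irradiated coculture used 1D8 cells given a dose of 50 Gy. In the conditioned medium sample no tumour cell was added and 1D8 supernatant made up 25% of the volume. Every sample was stained for the surface protein CD80 and sorted by flow cytometry before RNA was extracted. There was 1 biological sample and 1 array for each condition, so no value has a replicate error and no test was possible. Higher and lower describe these 4 arrays.

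Animal cells build cholesterol from acetyl-CoA through mevalonate, isoprenoid units, squalene and lanosterol. The genes of this route are switched on together by SREBP-2, a membrane-bound transcription factor encoded by Srebf2. When sterol is scarce, the escort protein SCAP carries SREBP to the Golgi, where proteases release its active part. When sterol is plentiful, INSIG proteins hold SCAP in the endoplasmic reticulum and the targets are less transcribed. The related SREBP-1, encoded by Srebf1, acts more on fatty acid synthesis, where it shares targets with the liver X receptors (LXR), which sense oxysterols. In macrophages and dendritic cells these pathways respond to microbial and interferon signals, and 25-hydroxycholesterol, made by the enzyme encoded by Ch25h, is a known product of activated myeloid cells.

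SREBP factors bind sterol regulatory elements and work with NF-Y, which binds CCAAT boxes, and Sp1, which binds GC boxes. The 250 bases before the transcription start are therefore shown for the members furthest from the control, taken from RefSeq on build GRCm38.p6. These are Hmgcs1, Idi1 and Cyp51, which were lower than the control, and Acly and Ch25h, which were higher. Scd2 was the furthest of all. Capitals mark matches on either strand to 3 motifs, which are TCACNCCA for the core of the sterol regulatory element, CCAAT, which reads ATTGG on the opposite strand, and GGGCGG, which reads CCGCCC there. No match to one motif overlapped a match to another in these 5 sequences, which run 5′ to 3′ along each gene.
Hmgcs1 (chr13:119690101-119690350, plus strand): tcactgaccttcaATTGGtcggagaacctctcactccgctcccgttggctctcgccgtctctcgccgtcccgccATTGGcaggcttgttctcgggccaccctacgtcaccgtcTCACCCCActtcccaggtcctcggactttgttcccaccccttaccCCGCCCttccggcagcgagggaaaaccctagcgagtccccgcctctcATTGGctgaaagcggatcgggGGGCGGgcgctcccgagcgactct
Idi1 (chr13:8885356-8885605, plus strand): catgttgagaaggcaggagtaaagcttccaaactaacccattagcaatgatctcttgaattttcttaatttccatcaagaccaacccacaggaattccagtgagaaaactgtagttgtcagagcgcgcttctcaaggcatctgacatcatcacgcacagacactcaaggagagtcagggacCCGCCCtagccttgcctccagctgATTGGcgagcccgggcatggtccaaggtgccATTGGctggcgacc
Cyp51 (chr5:4104698-4104947, minus strand): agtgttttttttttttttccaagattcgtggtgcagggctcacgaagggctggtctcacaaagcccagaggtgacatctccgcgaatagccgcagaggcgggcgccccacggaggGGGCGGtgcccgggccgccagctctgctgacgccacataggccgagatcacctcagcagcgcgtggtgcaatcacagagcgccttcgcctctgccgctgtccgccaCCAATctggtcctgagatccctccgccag
Acly (chr11:100528001-100528250, minus strand): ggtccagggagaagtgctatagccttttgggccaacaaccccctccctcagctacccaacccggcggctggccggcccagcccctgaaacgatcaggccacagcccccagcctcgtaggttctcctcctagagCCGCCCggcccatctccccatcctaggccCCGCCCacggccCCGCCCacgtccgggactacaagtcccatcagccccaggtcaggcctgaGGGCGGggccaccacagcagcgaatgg
Ch25h (chr19:34475149-34475398, minus strand): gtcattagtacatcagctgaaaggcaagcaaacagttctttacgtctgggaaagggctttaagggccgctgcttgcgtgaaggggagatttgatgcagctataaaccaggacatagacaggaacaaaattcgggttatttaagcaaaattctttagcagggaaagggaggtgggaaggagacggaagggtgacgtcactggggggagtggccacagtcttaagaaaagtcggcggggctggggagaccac

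The Hmgcs1 sequence held 1 match to the sterol element 137 bases before the start, together with 3 CCAAT boxes and 2 GC boxes. Idi1 held 2 CCAAT boxes, at 45 and 14 bases before the start, and 1 GC box, and Cyp51 held 1 CCAAT box, at 29 bases, and 1 GC box. The Acly sequence had 4 GC boxes and no CCAAT box, and the Ch25h sequence had no match to any of the 3 motifs. RefSeq promoters were matched for 25 of the 32 members, 33 promoters in all since some genes have several starts. Among the 17 promoters of 14 sterol enzymes, 14 held a CCAAT box (82.4%), which covers each of the 14 genes, against 34.9% of 11504 promoters of the array's brighter genes and 33.8% of all 32851 promoters of that length. A GC box was found in 14 of the 17 (82.4%), against 56.0% and 32.7% respectively. Both boxes occurred in 13 of the 17 (76.5%), against 19.9% of promoters of brighter genes. The sterol element core occurred in 2 of the 17, those of Hmgcs1 and Msmo1, against 3.41% and 3.67%, and also in that of Srebf2. Of 5 fatty acid gene promoters, 1 held a CCAAT box (Fasn) and 2 a GC box (Acly and Fads2). Sterol enzymes that hardly differed from the control, such as Lss and Nsdhl, held the same boxes, and a match does not show binding.

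Signals are MAS5 values, linear and in arbitrary units, and levels of different probe sets are not comparable with each other. Signals under 44.3, the median of all signals pooled, were set to that floor before ratios were taken, and a ratio whose dimmer side lay under it is given as at least that large. Median signals were 38.7 on the control array and 45.3 to 46.8 on the others. The ratio of 3' to 5' signal for Actb, a measure of RNA integrity, was 1.30 on the control array and 1.12 to 1.20 on the others. All 10 dendritic cell markers and all 6 macrophage markers listed were above the floor on the control array, with Itgax at 2534 and Csf1r at 7521, while Flt3 was close to the floor on all arrays (45.5 to 73.2). Cd80, the gene of the sorting marker, read 85.5 in the control and 378, 326 and 201 on the treated arrays. Signals of the 10 dendritic markers summed to 18872 on the control array, mainly from Cd74, H2-Eb1, H2-Ab1 and Itgax, the brightest of them. The sum was 11621 with live cells, 12275 with irradiated cells and 17276 with conditioned medium. Of the 10, 4, 3 and 1 were at least 2-fold lower than the control in that order and 1, 2 and 1 higher. The lower ones in both cocultures included H2-Eb1, a class II antigen-presenting chain (4244 in the control, 1347.5 and 1653 in the live and irradiated cocultures), and the chemokine receptor gene Ccr7 (596, 132 and 117.5). Macrophage markers summed to 20606, 17815, 18838 and 20131. The control BMDC thus carried transcripts of both marker lists, which on a bulk array does not show 2 separate cell types. Epithelial and mesothelial markers, listed for the tumour line, moved with the cocultures. Of 11 measured, 6 exceeded the control at least 2-fold with live cells, 7 with irradiated cells and none with conditioned medium. Their signals summed to 448 on the control array, 2859 with live cells, 3522 with irradiated cells and 800.0 with conditioned medium. None was listed at 0, but Krt7 was under the floor on all 4 arrays. Krt19, Upk3b, Msln, Wt1 and Lgals7 were under it in both the control and conditioned medium. On the control array, which had no tumour cells, Cdh1 (189.5), Epcam (103.8) and Krt8 (66.1) were above it. Summed mast cell and basophil markers (5 genes) went from 1209 in the control to 172, 261 and 670.4 in the same order, and neutrophil markers (7 genes) from 1939.7 to 810.1, 995 and 838.5. Cycling cell markers (7 genes) summed to 8182, 10942, 8269.8 and 12362. No array of 1D8 cells alone was used here, and the part of these cells in the differences below was not tested. In bulk RNA, fewer cells of a type and less RNA per cell cannot be told apart.

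Sterol enzyme genes were lower than the control on all 3 treated arrays at several steps, while fatty acid genes went both ways, with Scd2 well above the control. In the live coculture 5 of the 32 members were at least 2-fold lower, Hmgcs1, Idi1, Fdps, Cyp51 and Scap, and 2 were at least 2-fold higher, Scd2 and Ch25h. Of all 18193 genes 2.23% were lower and 3.36% higher in that comparison. Among the 11015 genes whose mean log2 signal lay above the floor, as it did for the members, the shares were 3.47% and 5.4%. In the irradiated coculture 7 members were lower (Hmgcs1, Idi1, Fdps, Cyp51, Msmo1, Insig1 and Fasn) and 2 higher (Scd2 and Acly), against 2.25% and 3.47% of all genes and 3.51% and 5.61% of brighter genes. In conditioned medium 5 were lower (Hmgcs1, Cyp51, Scap, Insig1 and Fasn) and 1 higher (Scd2), against 1.41% and 2.3% of all genes and 2.12% and 3.74% of brighter genes. As shares of the 32 members, the lower counts are 15.6%, 21.9% and 15.6%, above the background in each comparison, and the higher counts are 6.25%, 6.25% and 3.13%, near that of brighter genes. The 3 comparisons use the same control array, so an unusual control value would appear in all of them. Pairs of probe sets of the same gene gave a log2 ratio to the control an SD of 0.41 with live cells, 0.38 with irradiated cells and 0.36 with conditioned medium. This SD is scaled from the median absolute deviation between the 2 brightest probe sets above the floor, so large gaps weigh little in it. It measures error within an array and not the spread between cultures. Fdps and Scap in the live coculture (2.02-fold and 2.01-fold) and Fasn in conditioned medium (2.02-fold) lay just past the 2-fold threshold. With ratios averaged over all probe sets of a gene, the lower counts were 1, 3 and 3 in place of 5, 7 and 5. The background shares above are for the brightest probe set of each gene, so they cannot be set beside these averaged counts.

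**Figure D1:**
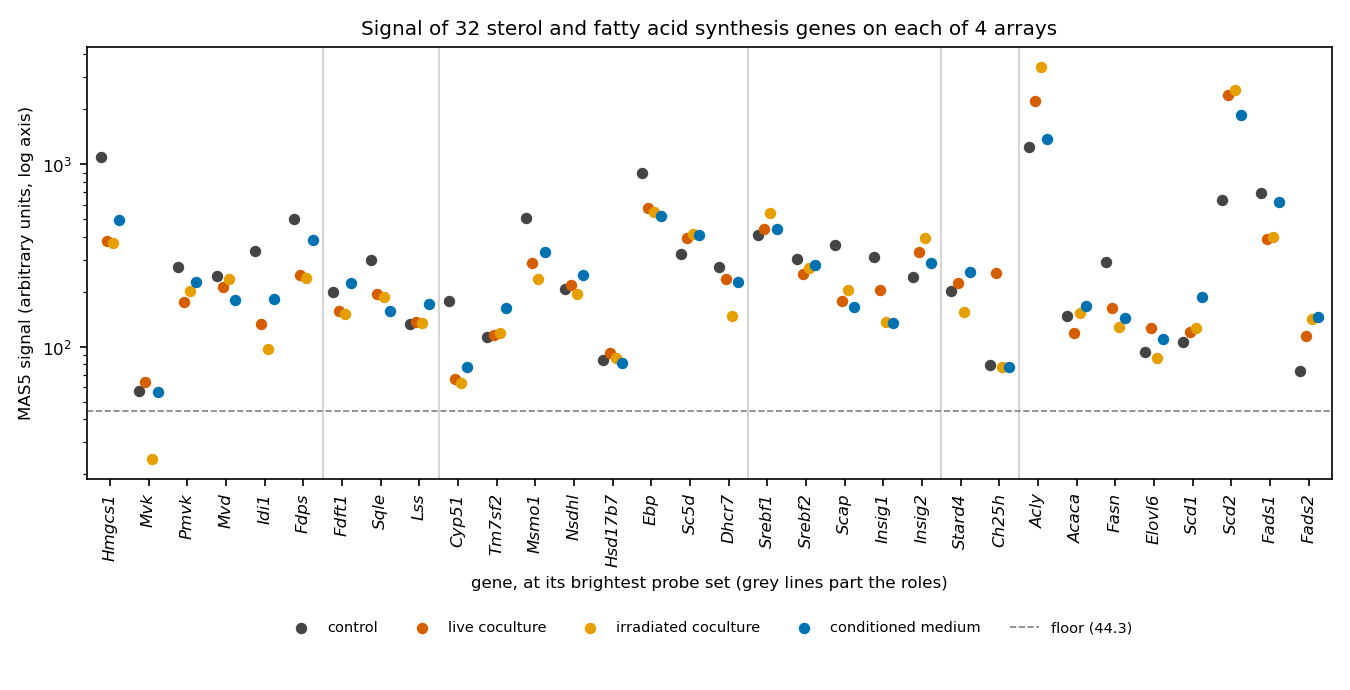
MAS5 signal (log axis, arbitrary units) of the 32 measured genes on the control, live coculture, irradiated coculture and conditioned medium arrays, 1 point per array, with the floor of 44.3 dashed. The control point stands above the 3 others for Hmgcs1, Idi1, Cyp51 and Fasn and below them for Scd2. Heights of different genes are not comparable.

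**Figure D2:**
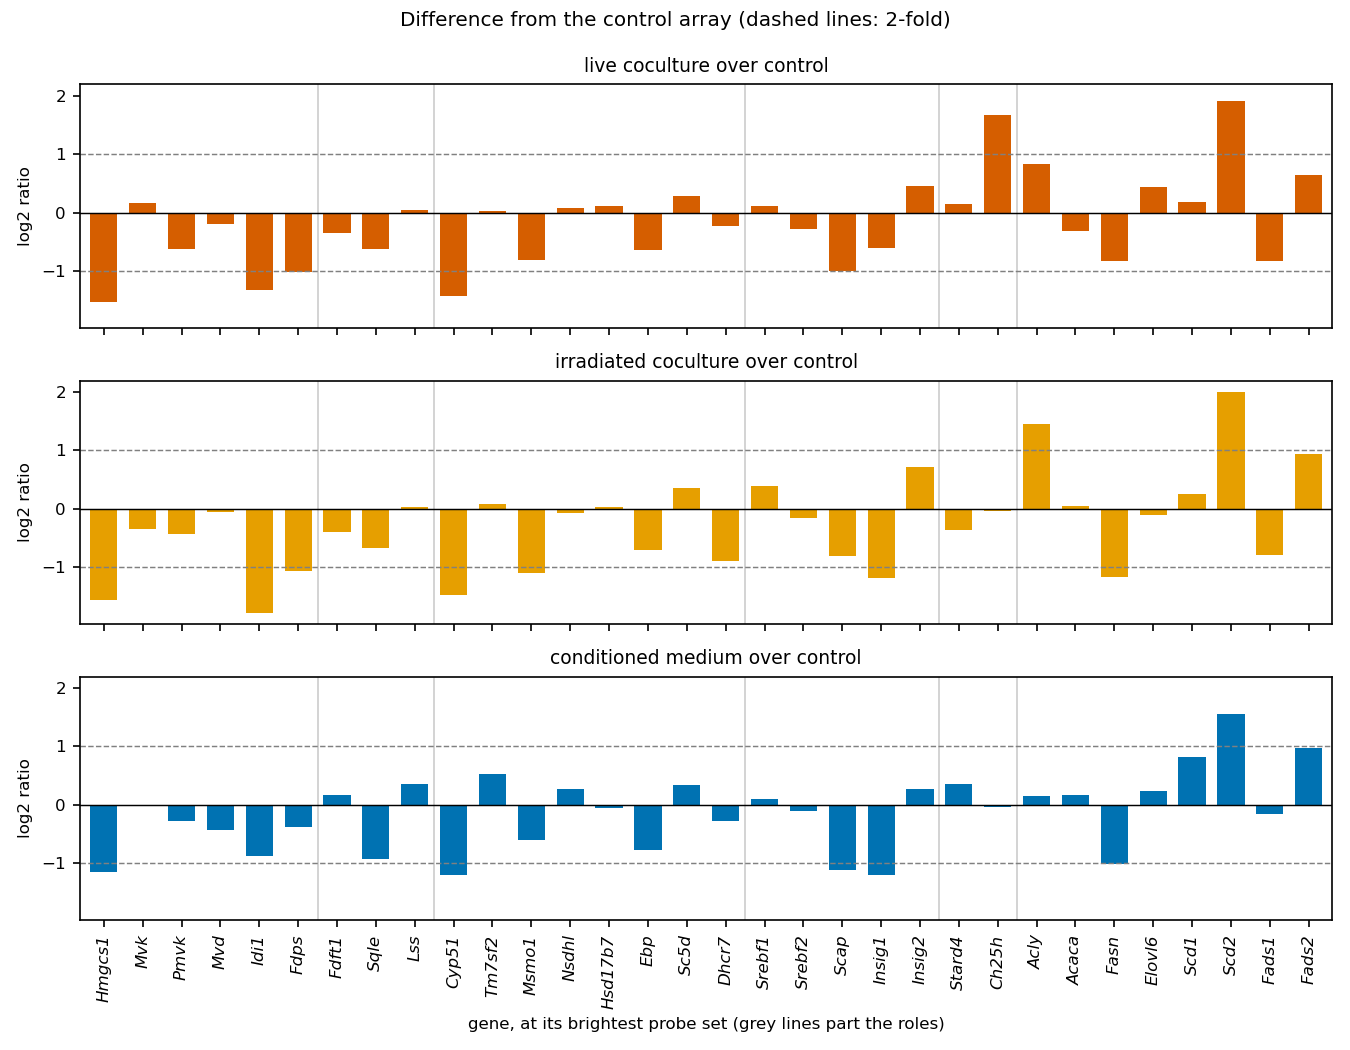
Log2 ratio of each treated array to the control array for the 32 genes, with dashed lines at 2-fold. Bars of Hmgcs1 and Cyp51 pass the lower line and those of Scd2 the upper line in all 3 panels, and Ch25h passes it in the live coculture panel alone.

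Of the 6 genes of the mevalonate steps, 3 were at least 2-fold below the control in each coculture and 1 of those in conditioned medium. Of brighter genes 3.47%, 3.51% and 2.12% were lower in the live coculture, irradiated coculture and conditioned medium. Hmgcs1 encodes HMG-CoA synthase, which makes the precursor of mevalonate, and had a signal of 1101 on the control array, 381 with live 1D8 cells, 372 with irradiated cells and 493 with conditioned medium. It was 2.89-fold, 2.96-fold and 2.23-fold lower than the control in that order, and 0.717%, 0.835% and 1.25% of the 11015 brighter genes had a lower ratio. Its other probe sets above the floor were also lower on each treated array, with log2 ratios from -1.30 to -0.30 in the live coculture, from -1.20 to -0.65 in the irradiated coculture and from -0.92 to -0.52 in conditioned medium. Idi1, the isomerase that supplies the activated isoprene unit, read 333.5 in the control and 132, 96.6 and 182 on the treated arrays. This was 2.52-fold and 3.45-fold lower in the live and irradiated cocultures and 1.83-fold lower in conditioned medium, short of the threshold. At its other probe set the conditioned medium value was past the threshold too (log2 ratio -1.33), beside -1.61 and -1.72 in the cocultures. Fdps encodes farnesyl diphosphate synthase, which joins isoprene units. Its signal was 501 in the control, 247.5 and 239 in the cocultures and 383 in conditioned medium, so both cocultures were low (2.02-fold and 2.10-fold) and conditioned medium lay between (1.31-fold lower).

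The kinases and the decarboxylase between these steps differed less. Pmvk, phosphomevalonate kinase, had signals of 274, 177, 202 and 225 in the order control, live coculture, irradiated coculture and conditioned medium, at most 1.55-fold below the control. Mvd, which decarboxylates mevalonate diphosphate, had 244, 213, 235 and 181, with log2 ratios of -0.20, -0.06 and -0.43. Mvk, mevalonate kinase, was dim, with 56.8, 63.7, 24.2 and 56.5, and was the only member under the floor on any array. Its irradiated value is thus only known to be at least 1.28-fold under the control. Over the 6 mevalonate genes the median log2 ratio to the control was -0.83 with live cells, -0.75 with irradiated cells and -0.41 with conditioned medium, against -0.02, -0.02 and 0.01 over brighter genes.

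None of the 3 genes from farnesyl diphosphate to lanosterol reached 2-fold. Sqle encodes squalene epoxidase, a rate-controlling oxygenase of the pathway, and had signals of 298 in the control, 193 and 188 in the live and irradiated cocultures and 156 in conditioned medium. It was lowest in conditioned medium, 1.91-fold under the control, and passed 2-fold there after quantile normalization (log2 ratio -1.01) or median centring (-1.05). Fdft1, squalene synthase, had 199, 156.5, 151 and 223, so it was lower in the cocultures (log2 ratios -0.35 and -0.39) but not in conditioned medium (0.17). A dimmer probe set of Fdft1 had log2 ratios of -0.58, -0.92 and -0.12. Another, under the floor in the control and the irradiated coculture, went the other way, with at least 0.50 in the live coculture and 0.46 in conditioned medium. Lss, lanosterol synthase, had 133, 137, 135 and 170.5 and stayed within 1.28-fold of the control.

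The 8 genes from lanosterol to cholesterol were divided between clearly lower and hardly different. Cyp51 encodes lanosterol demethylase, whose signal was 178 in the control and 66.3, 63.3 and 76.9 in the live coculture, irradiated coculture and conditioned medium. All 3 treated values lay close together and 2.68-fold, 2.81-fold and 2.31-fold below the control. With the floor raised to 155.6, which covers all 3 treated signals, a log2 ratio of -0.19 was left on each. Another probe set, under the floor in the live coculture and conditioned medium, had a log2 ratio of -0.75 in the irradiated coculture and at the floor -0.80 in the others. Msmo1, the sterol C4-methyl oxidase, had 504 in the control and 286, 234 and 330.5 on the treated arrays. It was 2.16-fold lower in the irradiated coculture and 1.76-fold and 1.53-fold lower in the live coculture and conditioned medium. Ebp, the sterol isomerase, had 895, 574, 546 and 519, a near-equal decrease of 1.56-fold, 1.64-fold and 1.72-fold. Dhcr7, which performs the last reduction to cholesterol, had 274, 235, 148 and 226, low in the irradiated coculture alone (1.86-fold).

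The 4 others were within 1.43-fold of the control at their brightest probe sets. Log2 ratios to the control were between -0.08 and 0.27 for Nsdhl, between -0.05 and 0.12 for Hsd17b7, between 0.03 and 0.52 for Tm7sf2 and between 0.28 and 0.35 for Sc5d, which encode further demethylation, reduction and desaturation enzymes. The second brightest probe set of Sc5d had log2 ratios of -0.51, 0.00 and -0.07 in the live coculture, irradiated coculture and conditioned medium. That of Hsd17b7 had -0.17, -0.49 and -0.25, with its irradiated signal under the floor. Together the 17 sterol enzymes had 4, 5 and 2 members at least 2-fold lower in the live coculture, irradiated coculture and conditioned medium. These are 23.5%, 29.4% and 11.8%, against 3.47%, 3.51% and 2.12% of brighter genes. None was at least 2-fold higher, against 5.4%, 5.61% and 3.74% of brighter genes. Ratios below 0 were found for 11, 13 and 12 of the 17 (64.7%, 76.5% and 70.6%), against 51.1%, 51.7% and 47.8% of brighter genes. Their median log2 ratios were -0.35, -0.44 and -0.28. The control array gave the highest signal for 10 of the 17, and the irradiated coculture the lowest for 9.

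**Figure D3:**
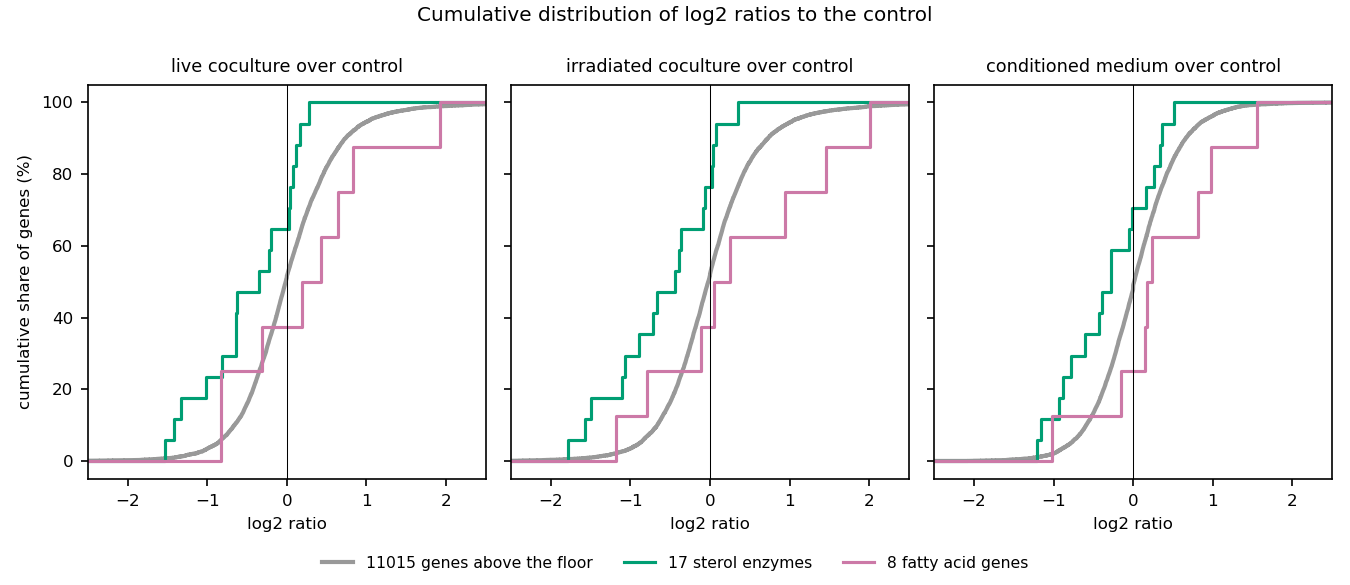
Cumulative share of genes (%) by log2 ratio to the control, 1 panel per treated array, for 17 sterol enzymes, 8 fatty acid genes and the 11015 genes with a mean log2 signal above the floor. The sterol curve lies left of the grey curve in each panel, with medians of -0.35, -0.44 and -0.28, and none of its genes goes beyond 0.52.

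Of the genes that control the pathway, the transcription factors themselves were close to the control at their brightest probe sets. Srebf2 was lower at its other one. Srebf1 had signals of 411, 442, 538 and 441 in the order control, live coculture, irradiated coculture and conditioned medium, at most 1.31-fold above the control. Srebf2 had 303, 249, 270.0 and 279.9, at most 1.22-fold below it, and its other probe set had log2 ratios of -0.83, -0.62 and -0.48. The escort gene Scap was lower on every treated array, with 359 in the control and 179, 205 and 164 on the others (2.01-fold, 1.75-fold and 2.19-fold). Its other probe set was under the floor on all arrays. The 2 INSIG genes, whose proteins hold SCAP back, differed in opposite directions. Insig1, itself an SREBP target, had 310.3 on the control array, 204 with live cells, 136 with irradiated cells and 134 with conditioned medium. It was 1.52-fold, 2.27-fold and 2.31-fold lower. Insig2 had 239 in the control, 329.5 and 393 in the cocultures and 288 in conditioned medium, between 1.20-fold and 1.64-fold higher and under the threshold. All 3 probe sets of Insig2 were above the control in both cocultures (log2 ratios 0.46 to 0.74), while in conditioned medium they ranged from -0.06 to 0.27.

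Ch25h, the cholesterol 25-hydroxylase gene, was high on 1 array alone. The control array read 79.2, the live coculture 252, the irradiated coculture 76.9 and conditioned medium 77.3. The live coculture was thus 3.18-fold above the control, 3.27-fold above the irradiated coculture and 3.26-fold above conditioned medium, and the 3 other arrays were within 1.03-fold of each other. Between the 2 cocultures 0.368% of all genes were at least 2-fold higher in the live one and 0.302% lower, and Ch25h was the only member among them. The SD of a log2 ratio from pairs of probe sets was 0.20 for that comparison. Ch25h has 1 probe set, so no other reading bears on it. Stard4, a carrier of free sterol, had 200.7, 222, 155.5 and 255, within 1.29-fold of the control, and its 3 probe sets differed in sign in each comparison with it.

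Fatty acid genes included the highest and some of the lowest ratios. Scd2, a stearoyl-CoA desaturase that makes monounsaturated fatty acids, had a signal of 633.5 on the control array, 2399 with live cells, 2547.5 with irradiated cells and 1861 with conditioned medium. It was 3.79-fold, 4.02-fold and 2.94-fold higher, the largest of the 32 members on each treated array. Its dimmer probe sets showed larger differences, with log2 ratios of 2.77, 2.70 and 2.44 at one and at least 3.06, 3.07 and 2.20 at the other, whose control signal was under the floor. Scd1, the paralogue with the same activity, had 106, 121, 127 and 187 and was 1.76-fold higher in conditioned medium and within 1.19-fold in the cocultures. Probe sets of near-identical paralogues can share signal.

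Acly encodes ATP citrate lyase, which makes cytosolic acetyl-CoA for both pathways. The control array read 1249, the live coculture 2217, the irradiated coculture 3427 and conditioned medium 1379.5. Only the irradiated coculture was past 2-fold (2.74-fold), with the live coculture 1.77-fold and conditioned medium 1.10-fold above the control. After quantile normalization the live coculture was past it as well (log2 ratio 1.01), which makes 3 members higher there in place of 2. At the 2 others above the floor on every array the log2 ratios were 0.15 and 1.46 in the live coculture, 0.78 and 2.09 in the irradiated coculture and -0.43 and 0.66 in conditioned medium. All 3 thus ranked the irradiated coculture above the live coculture.

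Fasn, the fatty acid synthase that acts downstream of Acly, went the other way. Its signal was 291 in the control and 164, 128.5 and 144 in the live coculture, irradiated coculture and conditioned medium, or 1.78-fold, 2.27-fold and 2.02-fold lower. Acaca, the carboxylase between them, had 148, 119.5, 153 and 167 and stayed within 1.24-fold of the control. A dimmer probe set of Acaca, under the floor in the control, had log2 ratios of at least 1.23, 0.62 and 1.34, so no direction is given for this gene. Among the desaturases of polyunsaturated fatty acids, Fads1 was lower in the cocultures, with 693.5 in the control, 390.2 and 399.5 in the live and irradiated cocultures and 622 in conditioned medium (1.78-fold, 1.74-fold and 1.12-fold). Fads2 had 73.8 in the control and 115, 142 and 145 on the others (1.56-fold, 1.92-fold and 1.97-fold higher), under the threshold, and at its other measurable probe set log2 ratios were 0.23, -0.17 and 0.33. Elovl6, which lengthens palmitate, had 93.7, 127, 87.0 and 110.6. The 8 fatty acid genes had median log2 ratios of 0.31, 0.15 and 0.21, with ratios above 0 for 5, 5 and 6 of them.

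**Figure D4:**
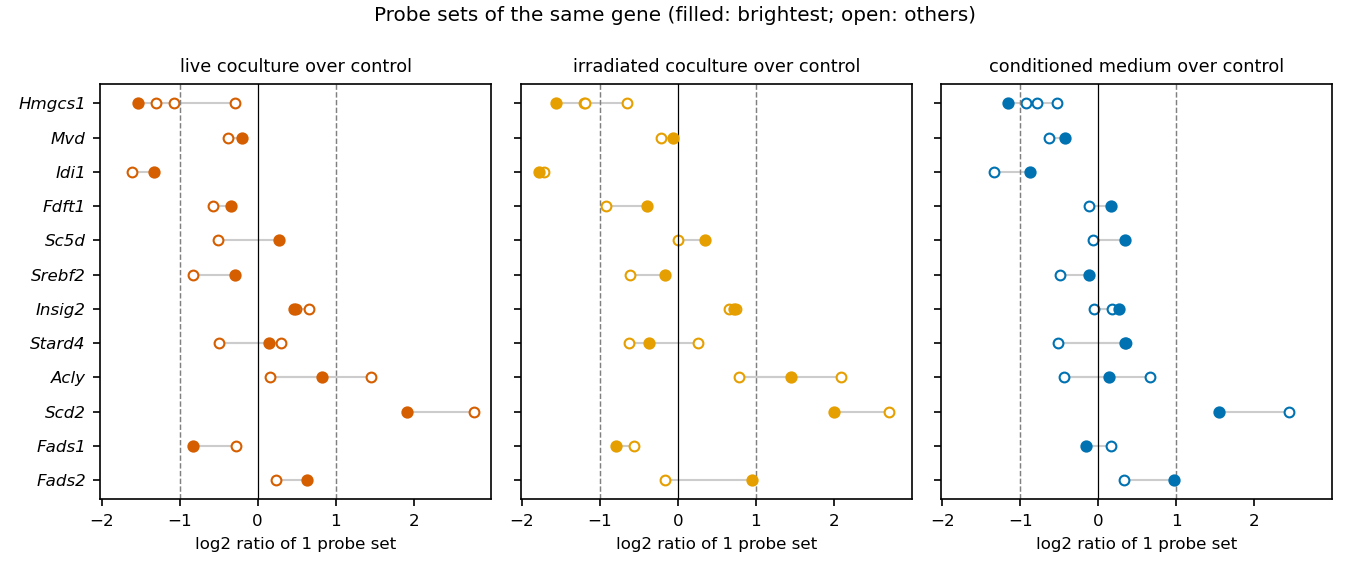
Log2 ratio to the control of single probe sets, for the 12 members with more than 1 probe set above the floor on all 4 arrays (filled, the brightest; open, the others). Readings of Hmgcs1 and Idi1 all lie left of 0 and those of Scd2 all right of it, whereas the 3 of Acly are up to 1.31 apart.

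Comparisons among the treated arrays do not use the control. Against conditioned medium, no member was at least 2-fold lower in either coculture, where 1.14% of all genes were lower in the live coculture and 1.24% in the irradiated one. The only members at least 2-fold higher were Ch25h in the live coculture and Acly in the irradiated coculture (2.48-fold), against 1.75% and 1.95% of all genes. Below that threshold, Idi1 was 1.37-fold and 1.88-fold lower in the live and irradiated cocultures than in conditioned medium, Fdps 1.55-fold and 1.60-fold, and Fads1 1.59-fold and 1.56-fold. Insig1 was 1.52-fold higher in the live coculture than in conditioned medium and equal within 1.02-fold in the irradiated coculture. Between the cocultures, Dhcr7 (1.59-fold), Insig1 (1.49-fold) and Idi1 (1.37-fold) were higher in the live coculture and Acly was 1.55-fold lower, while Hmgcs1, Cyp51, Fdps and Sqle were within 1.05-fold of each other.

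No array is common to the ratio of live coculture to control and the ratio of irradiated coculture to conditioned medium. Of 17 sterol enzymes 8 were below 0 in both (47.1%), 2 above 0 in both and 7 opposite, where 32.1% of brighter genes were below 0 in both. Hmgcs1, Idi1, Fdps, Cyp51 and Msmo1 were among the 8. Across the 32 members these ratios had a Pearson correlation of 0.43 (Spearman 0.38), beside 0.44 (Spearman 0.27) across the 11015 brighter genes. These are descriptions over genes read on the same 4 arrays, and genes are not independent replicates. Another pair without a common array sets the irradiated coculture against the control and the live coculture against conditioned medium. It had 8 of 17 sterol enzymes below 0 in both, against 31.6% of brighter genes. For each gene its 2 log2 ratios have the same sum as those of the first pair, so this count is not a separate reading. In this pair the correlation was 0.25 (Spearman 0.20) across the members and 0.44 (Spearman 0.28) across brighter genes. The remaining pair without a common array is live over irradiated coculture beside conditioned medium over control. There 2 of 17 sterol enzymes were below 0 in both (11.8%), 3 above 0 in both and 12 opposite. Of brighter genes 23.5% were below 0 in both. The correlation was -0.19 (Spearman -0.30) across the members and -0.01 (Spearman -0.01) across brighter genes.

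**Figure D5:**
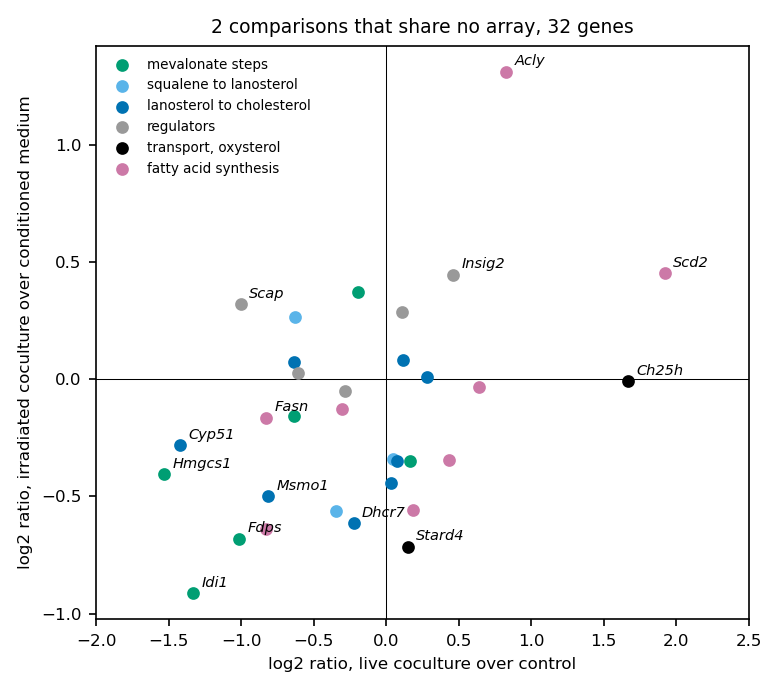
Log2 ratio of the irradiated coculture to conditioned medium against that of the live coculture to the control for the 32 members, coloured by role. Hmgcs1, Idi1, Fdps, Cyp51 and Msmo1 lie in the lower left, Acly and Scd2 in the upper right, and Ch25h has a ratio of 1.67 on the horizontal axis and -0.01 on the vertical.

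Other genes of lipid metabolism were listed to set beside the members, and 44 of 54 were measured. Among 7 further genes listed with sterol synthesis, not all of them enzymes of that route, none differed 2-fold from the control on any array. Log2 ratios ran from -0.87 to 0.20. Of the 7, Idi2 was under the floor on every array and Cyp46a1 on all but the conditioned medium array. The floor thus held most of their ratios at 0. The 5 genes of SREBP processing and degradation, which include the activating proteases, also stayed under 2-fold, with log2 ratios from -0.59 to 0.24. Of 10 genes listed for sterol uptake and storage, 6 were measured, Npc1, Npc2, Lipa, Stard3, Osbp and Osbpl1a. Of these 6, 1 was at least 2-fold lower in both cocultures, where 2.23% (live) and 2.25% (irradiated) of all genes were lower. This was Lipa, the lysosomal acid lipase that frees cholesterol from esters, with 6356 in the control, 2622 and 2104 in the live and irradiated cocultures and 4239 in conditioned medium (2.42-fold and 3.02-fold lower in the cocultures, log2 ratio -0.58 in conditioned medium), and its 2 other probe sets were lower as well on each array. Of 9 LXR and efflux genes, 2 were at least 2-fold lower in the live coculture and 1 higher in the irradiated coculture, against 2.23% and 3.47% of all genes. Apoe, which carries cholesterol out of cells, was 2.80-fold lower in the live coculture (6975 against 2488), with 5251 and 6041 on the other treated arrays. Nr1h3, which encodes LXR-alpha, was at least 2.07-fold lower in the live coculture, from 91.9 in the control. It was 1.93-fold lower in the irradiated coculture (47.5, close to the floor) and 1.42-fold lower in conditioned medium (64.5). Abca1, the cholesterol exporter, was 2.74-fold higher in the irradiated coculture (4816 against 1754.5), 1.76-fold in the live coculture and 1.23-fold in conditioned medium. Its dimmer probe sets were far above the control on all 3 treated arrays, with log2 ratios of 4.07, 4.58 and 3.28 at one and of at least 3.79, 4.20 and 2.61 at the other.

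Of 17 further fatty acid synthesis genes, 2 were at least 2-fold higher in the live coculture (11.8%), 1 higher and 1 lower in the irradiated coculture (5.88% each) and 1 higher in conditioned medium (5.88%). Of all genes 3.36%, 3.47% and 2.3% were higher in that order and 2.25% lower in the irradiated coculture. Single genes of 17 are too few to set the list apart from these shares. Acacb and Olah, under the floor on every array, could not be called. Me1, malic enzyme, which supplies NADPH for lipid synthesis, had 55.2 in the control, 262.5 and 242 in the live and irradiated cocultures and 71.1 in conditioned medium, so both cocultures were high (4.76-fold and 4.39-fold) and conditioned medium was not (1.29-fold). Mlxipl, a transcription factor that responds to glucose, was under the floor in the control and 165 in the live coculture (at least 3.73-fold higher). It read 81.8 in the irradiated coculture (at least 1.85-fold higher) and 51.0 in conditioned medium (at least 1.15-fold). Mid1ip1, an activator of acetyl-CoA carboxylase, was 2.20-fold lower in the irradiated coculture (539 against 1185), 1.79-fold lower in the live coculture (662) and 1.09-fold lower in conditioned medium (1087). Acss2, which makes acetyl-CoA from acetate, was 2.47-fold higher in conditioned medium (161.5 against 65.3), with another probe set at a log2 ratio of 0.79. In the live and irradiated cocultures Acss2 was 1.74-fold and 1.67-fold higher. That other probe set had log2 ratios of -0.38 and 0.03 there, with its live coculture signal under the floor.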

How the data were processed

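RNA of 4 sorted cell samples was hybridised to 1 Affymetrix mouse array each. The authors deposited 1 signal intensity for each probe set, made in GCOS 1.4 with MAS5, per the submitters' processing notes. The scaling target is not given in the sources used here. The mean intensity without the lowest and highest 2% of the 45101 probe sets was 150.0 on every array, so no further scaling was applied. Since MAS5 takes mismatch signal off each probe set, ratios of dim ones vary most. The 64 control probe sets were left out. Of the others, 34945 had 1 gene symbol in the platform annotation, 932 had several and 9160 were not listed. The first kind was used. Signals were floored at 44.3 (the 50th percentile) and log2 ratios taken in 6 comparisons with pandas 2.3.3. A gene counted as higher or lower at 2-fold. Detection calls were not used. All measured members are named, and from other lists those at least 2-fold from the control, at most 4 a list. Promoters are shown for up to 6 members with the largest ratios to the control. The counting steps were tested on simulated data. The members, lists and settings were chosen with earlier results of these data known. The number of arrays limits the precision, and 1 array a condition gives no error between cultures. Alternatives were other floors (12.9 and 155.6), quantile normalization, median centring, other probe set rules and a 3-fold threshold.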

Additional observations from a re-analysis of the deposited data

How the results depend on the processing

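No paired analysis was possible because each condition has 1 array. No ratio past 2-fold changed its sign under any alternative run, and each median over the members moved by less than the SD judged from probe sets. All 25 gene ratios past 2-fold remained past it after quantile normalization and after median centring, which shifted the median ratio of brighter genes to the control by -0.12 for the live coculture, -0.07 for the irradiated coculture and -0.11 for conditioned medium. With the floor at the 75th percentile 10 of the 25 were under 2-fold, as were 13 with the mean over probe sets, where probe sets under the floor on all arrays pull a ratio towards 0 by construction. Against the control, lower members in the live coculture (5) numbered 1 with the mean over probe sets, 2 of 22 at the second brightest probe set and 0 at 3-fold. Lower members in the irradiated coculture (7) numbered 4 with the higher floor, 3 with the mean, 2 at the second brightest and 1 at 3-fold, and those in conditioned medium (5) numbered 2, 3, 1 and 0. Higher members in the live coculture (2) numbered 1 with the higher floor. In the irradiated coculture (2) they numbered 1 with the mean, the second brightest probe set or the 3-fold threshold, and in conditioned medium (1) they numbered 2 at the second brightest and 0 at 3-fold. Live over irradiated coculture (1 higher) gave 2 with the floor at the 25th percentile, where Mvk was added, and 0 with the higher floor or the second brightest probe set. Live coculture over conditioned medium (1 higher) gave 0 with the higher floor or the second brightest, since Ch25h was then under 2-fold (log2 ratio 0.69) or had no other probe set. Irradiated coculture over conditioned medium (1 higher) gave 0 with the mean or at 3-fold, and 1 lower, Mvk, with the lower floor. The shares of all genes given earlier belong to the main settings, so these other counts cannot be set against them. Where no construction is named, the cause was not tested.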
